A study of Mus musculus with 8 samples.

Results

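This report describes 9 genes of the complement system and its receptors in the mouse ventral hippocampus after an injection of corticosterone. The genes were chosen by name and role, with earlier results of these data known, as the subunits of C1q (*C1qa*, *C1qb* and *C1qc*), the components *C4b* and *C3*, the inhibitor *Serping1* and the receptors *C3ar1*, *C5ar1* and *Itgam*. They are 9 of the 50686 genes in the count table. RNA-seq was measured in 8 male mice that were 8 weeks old and housed in groups. Their strain is written as C57B6/J in the labels, a spelling that differs from the paper's. Of the mice, 4 were injected with vehicle and 4 with corticosterone, the principal glucocorticoid (GC) of rodents, at 3 mg/kg. The mice were killed 3 h after the injection, and each library holds the ventral hippocampus of 1 mouse. The libraries are numbered as in the labels, 1 to 4 for vehicle and 5 to 8 for corticosterone. The comparison asks which transcripts of the ventral hippocampus respond to an acute rise of GC. No mouse went without an injection, and the 4 mice of a group stand for 1 dose and 1 time point, in males alone.

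Complement is a cascade of proteins that marks surfaces for removal. In the classical pathway, C1q binds a target and activates the proteases C1r and C1s, which cleave C4 and C2 to form an enzyme that in turn cleaves C3. Fragments of C3 coat the target and are recognised by complement receptor 3, a dimer of the *Itgam* and *Itgb2* products, while the small fragments C3a and C5a signal through the receptors encoded by *C3ar1* and *C5ar1*. Serping1, the C1 inhibitor, blocks C1r and C1s. In the brain, C1q is made mostly by microglia, and C1q and C3 are known for their part in the removal of synapses during development. GCs act through the GC receptor (GR) and the mineralocorticoid receptor, which bind DNA at sites made of the hexamer AGAACA and its inverted copy.

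Reads on genes ranged from 19214090 to 19931987 in the vehicle libraries and from 17492159 to 19776297 in the corticosterone libraries. Hippocampal neurons were present, since 10 markers of hippocampal neurons, which included *Prox1* of the dentate gyrus and *Wfs1* of CA1, summed to between 5040 and 5920 CPM (reads scaled to the size of the library), and none of them was at 0. Of the 16018 genes that passed the filter on low counts, edgeR's quasi-likelihood test with Benjamini-Hochberg adjustment called 1, the GC target *Fkbp5*, at an adjusted p value under 0.05. Corticosterone library 5 stood apart from the other 3 corticosterone libraries. Without it, 1651 of 16181 genes were called (10.2%), and without vehicle library 1, 19 were called. The libraries also differed in how the level of a gene depended on its GC content (guanine and cytosine, here always written as GC content). The slope, in log2 units per 10 percentage points of GC content, was 0.064, 0.158, 0.192 and -0.0884 in vehicle libraries 1 to 4 and 0.211, -0.199, -0.141 and -0.196 in corticosterone libraries 5 to 8. Corticosterone library 5 thus lay beside vehicle libraries 2 and 3, and vehicle library 4 was nearest to corticosterone libraries 6 to 8.

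None of the 9 complement genes was called as different between corticosterone and vehicle, and *C5ar1* had too few reads to be tested. edgeR's quasi-likelihood test called 0 of the 8 that passed the filter, against 0.00624% of all genes tested, and the lowest adjusted p value among them was 0.545 after Benjamini-Hochberg adjustment. Before adjustment, p was under 0.05 for 1 of the 8, *C3*, against 9.03% of all genes. DESeq2 and limma-voom also called 0 of them. In these tools the unadjusted p value was under 0.05 for *Serping1* (0.0437 in DESeq2 and 0.0496 in limma-voom) and above it for *C3* (0.0831 and 0.0616). The values of the 2 groups overlapped for each of the 9 genes, and they did not overlap for 3.66% of all genes tested. At so small a share, overlap in all 9 does not set these genes apart. Among the 8 genes, the log2 fold change was above 0 for *C3* and *Serping1* and below 0 for the other 6, with a median of -0.09 beside 0 for all genes. The p values set the difference between the groups against the variation within them, among the mice of 1 experiment. In bulk tissue, fewer cells of a type and less RNA per cell cannot be told apart.

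**Figure D1:**
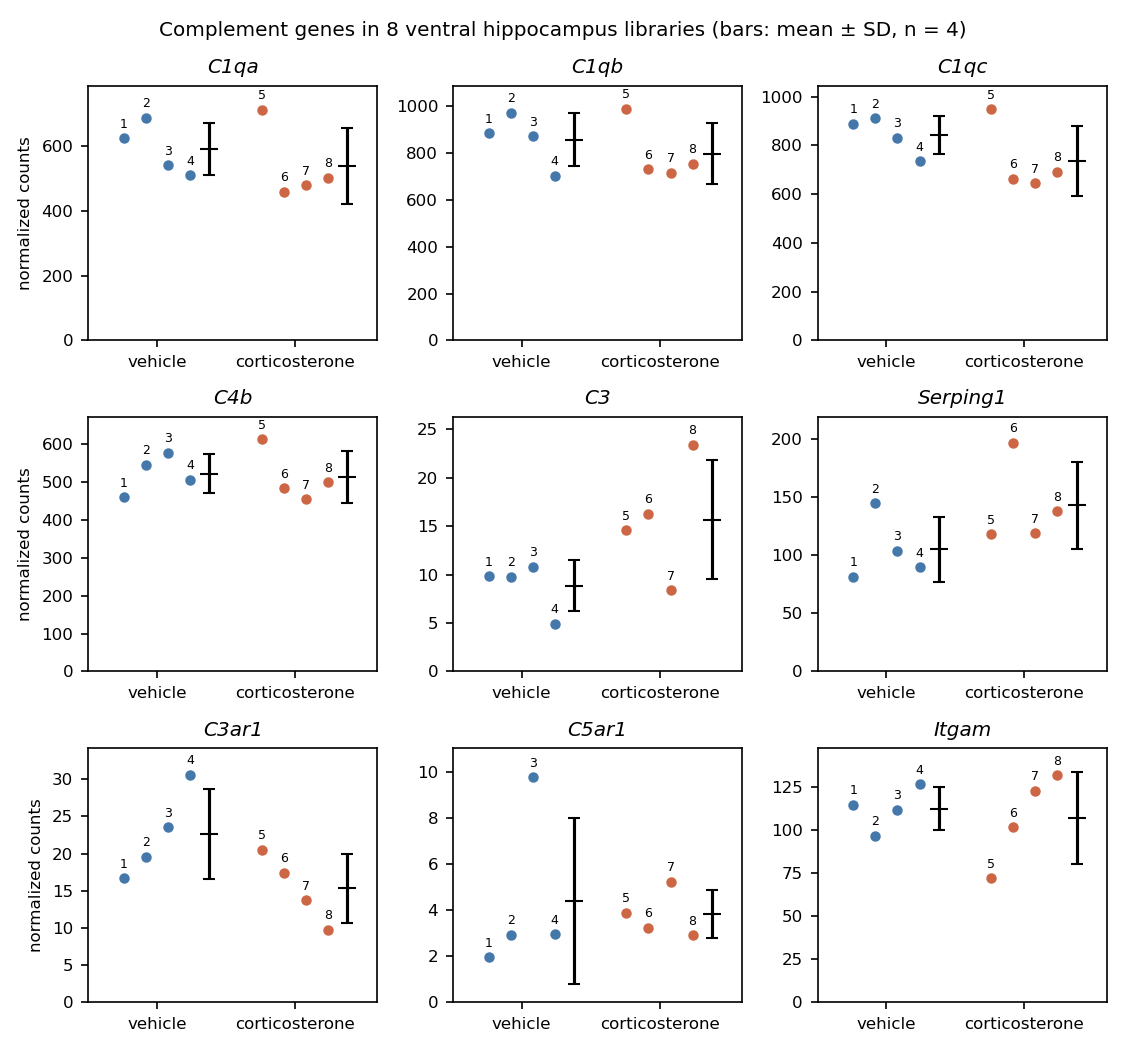
Normalized counts of the 9 complement genes (vertical axis, linear from 0) in vehicle libraries 1 to 4 (blue) and corticosterone libraries 5 to 8 (orange), with bars for the mean ± SD of 4 libraries. The groups overlap in every panel, and the C1q genes are highest in corticosterone library 5, at 712 for *C1qa*, 990 for *C1qb* and 949 for *C1qc*.

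The 9 genes covered a wide range of levels. Levels between genes are given as CPM per kb of merged exon, and the values that follow are means ± SD of the 4 vehicle libraries. *C1qb* was at 41.2 ± 5.39, *C1qa* at 29.6 ± 4.01 and *C1qc* at 22.8 ± 2.13. *C4b* followed at 4.78 ± 0.468, *Serping1* at 2.36 ± 0.633 and *Itgam* at 1.17 ± 0.13. The lowest were *C3ar1* at 0.274 ± 0.073, *C3* at 0.0896 ± 0.0267 and *C5ar1* at 0.0896 ± 0.0733. From *C1qb* down to *C3ar1*, each gene exceeded the next in 8 of 8 libraries. *C3ar1* exceeded *C3* in 7 libraries and *C3* exceeded *C5ar1* in 5, so the order of these 3 was not separated by the spread between libraries. Merged exons count every isoform, and the order depended on this choice. With the median transcript length, *C1qc* was at 40.9, *C4b* at 35.7 and *C3* at 0.758, so that *C4b* came between the C1q genes and *C3* above *C3ar1*. The place of *Itgam* below *Serping1* is uncertain too, since it shares exons with another gene, as described below. Per kb of the exon that is not shared, *Itgam* was at 3.75 ± 0.414, above *Serping1*.

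**Figure D2:**
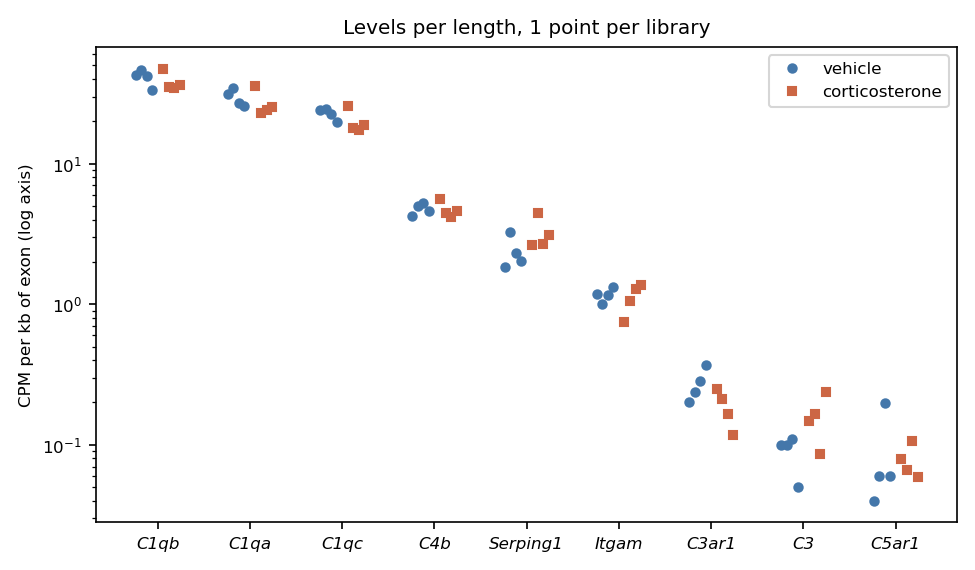
CPM per kb of merged exon (vertical log axis) for the 9 genes in decreasing order, with 1 point per library, vehicle in blue circles and corticosterone in orange squares. The C1q genes lie between 17.4 and 47.5, and *C3ar1*, *C3* and *C5ar1* lie below 0.4.

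*C1qa*, *C1qb* and *C1qc* encode the A, B and C chains, which assemble in equal numbers into the C1q molecule. They lie side by side on the minus strand of chromosome 4 in GRCm38, *C1qa* (ENSMUSG00000036887) at chr4:136895917-136898803, *C1qc* (ENSMUSG00000036896) at chr4:136889804-136893065 and *C1qb* (ENSMUSG00000036905) at chr4:136880129-136886187. Their transcripts are rich in G and C, with a GC content of 59.5% for *C1qa*, 57.4% for *C1qb* and 56.6% for *C1qc*, against a median of 50.6% for the genes tested.

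The promoter windows of *C1qb* and *C1qc* are shown because these genes varied together across the libraries, and that of *C3* because it had the largest fold change of the 9 genes. They are RefSeq sequences of GRCm38.p6 that run from 250 bases before to 50 bases after the start of the gene, on the minus strand in each case, at chr4:136886151-136886450 for *C1qb*, chr4:136892865-136893164 for *C1qc* and chr17:57228087-57228386 for *C3*. Capitals mark the GR hexamer, AGAACA or its reverse complement TGTTCT.
C1qb: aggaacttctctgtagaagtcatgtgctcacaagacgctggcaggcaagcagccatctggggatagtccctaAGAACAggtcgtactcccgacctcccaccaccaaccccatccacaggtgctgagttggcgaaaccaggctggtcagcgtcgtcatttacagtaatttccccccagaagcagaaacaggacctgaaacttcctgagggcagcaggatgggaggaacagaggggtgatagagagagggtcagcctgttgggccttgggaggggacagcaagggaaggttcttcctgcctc
C1qc: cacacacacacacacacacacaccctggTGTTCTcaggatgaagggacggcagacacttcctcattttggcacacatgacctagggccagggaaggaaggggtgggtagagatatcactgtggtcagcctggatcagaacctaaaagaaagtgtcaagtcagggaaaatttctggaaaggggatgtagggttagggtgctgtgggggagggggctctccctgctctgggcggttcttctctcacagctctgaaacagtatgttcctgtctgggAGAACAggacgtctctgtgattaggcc
C3: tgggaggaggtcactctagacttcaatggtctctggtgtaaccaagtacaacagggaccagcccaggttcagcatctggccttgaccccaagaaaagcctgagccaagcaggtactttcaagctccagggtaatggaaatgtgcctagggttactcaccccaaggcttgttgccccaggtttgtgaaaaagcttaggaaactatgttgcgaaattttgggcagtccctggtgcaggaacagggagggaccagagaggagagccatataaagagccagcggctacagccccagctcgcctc

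The promoter table used here held 6 of the 9 genes, without *C1qa*, *C4b* and *Serping1*. The hexamer was found once in the *C1qb* window, at base 73, and at bases 29 and 274 of the *C1qc* window, counted from the first base shown. It was not found in the windows of *C3*, *C3ar1*, *C5ar1* and *Itgam*, and 19% of 32851 promoter windows of this length hold it. The full element, AGAACA followed after 3 bases by TGTTCT, was in 3 of the 32851 windows and in none of the 6. The core of the site for PU.1, a transcription factor of microglia, was searched as GAGGAA on both strands. It was found in the windows of *C1qb*, *C1qc* and, 3 times, *Itgam*, and in 28.3% of all windows. A match of so few letters is a description of the sequence and does not show binding.

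The C1q genes were lower in 3 of the 4 corticosterone libraries than in most vehicle libraries and high in the remaining one. For *C1qc*, the normalized counts were 889, 913, 832 and 735 in vehicle libraries 1 to 4 and 949, 663, 644 and 692 in corticosterone libraries 5 to 8. Corticosterone library 5 was the highest of the 8, and the other 3 lay below every vehicle library. The means were 842 ± 78.9 (SD, n = 4) and 737 ± 143, a log2 fold change of -0.19 (SE 0.12, 95% interval -0.45 to 0.07). This was within the spread of the replicates (adjusted p = 0.589 by edgeR's quasi-likelihood test with Benjamini-Hochberg adjustment, and p = 0.229 by an exact permutation test, two-sided). With 4 against 4 libraries, the smallest p value of the permutation test is 0.0286.

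*C1qa* had normalized counts of 623, 687, 541 and 510 in the vehicle libraries and of 712, 459, 479 and 502 in the corticosterone libraries. *C1qb* had 886, 972, 871 and 703 with vehicle and 990, 731, 716 and 754 with corticosterone. In both genes corticosterone library 5 was again the highest, and vehicle library 4 was the lowest of its group. The log2 fold change was -0.13 (SE 0.14, 95% interval -0.44 to 0.17) for *C1qa* and -0.10 (SE 0.12, 95% interval -0.36 to 0.16) for *C1qb*, with adjusted p values of 0.722 and 0.741 in edgeR's quasi-likelihood test with Benjamini-Hochberg adjustment. Counting error was small at these levels, with a coefficient of variation between 3.47% and 4.2% in the C1q genes, while the libraries of a group varied by 9.36% to 21.8%.

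Without corticosterone library 5, the log2 fold change of *C1qc* was -0.34 and it was called (adjusted p = 0.028 by edgeR's quasi-likelihood test with Benjamini-Hochberg adjustment). In that fit 6.47% of all genes were called lower. *C1qa* was at -0.30 (adjusted p = 0.0752) and *C1qb* at -0.23 (adjusted p = 0.134) by the same edgeR test, and neither was called. Leaving out vehicle library 2 instead moved them the other way, to -0.05 for *C1qa* and -0.04 for *C1qb*. The C1q level was above its mean in the 4 libraries with a slope above 0 and below it in the 4 with a slope below 0, although the order within these did not match throughout. The mean log2 deviation of the 3 genes was 0.15, 0.26, 0.04 and -0.15 in vehicle libraries 1 to 4, and 0.30, -0.23, -0.23 and -0.15 in corticosterone libraries 5 to 8. With each library's dependence on GC content and length removed, which was added once the data had been seen, the log2 fold changes were 0.03 for *C1qa*, 0.02 for *C1qb* and -0.10 for *C1qc*. With the trend removed and corticosterone library 5 left out as well, they were -0.01, -0.01 and -0.16, and none was called. The differences in *C1qa* and *C1qb* were thus within 0.03 of 0 on the log2 scale in both fits without the trend.

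**Figure D3:**
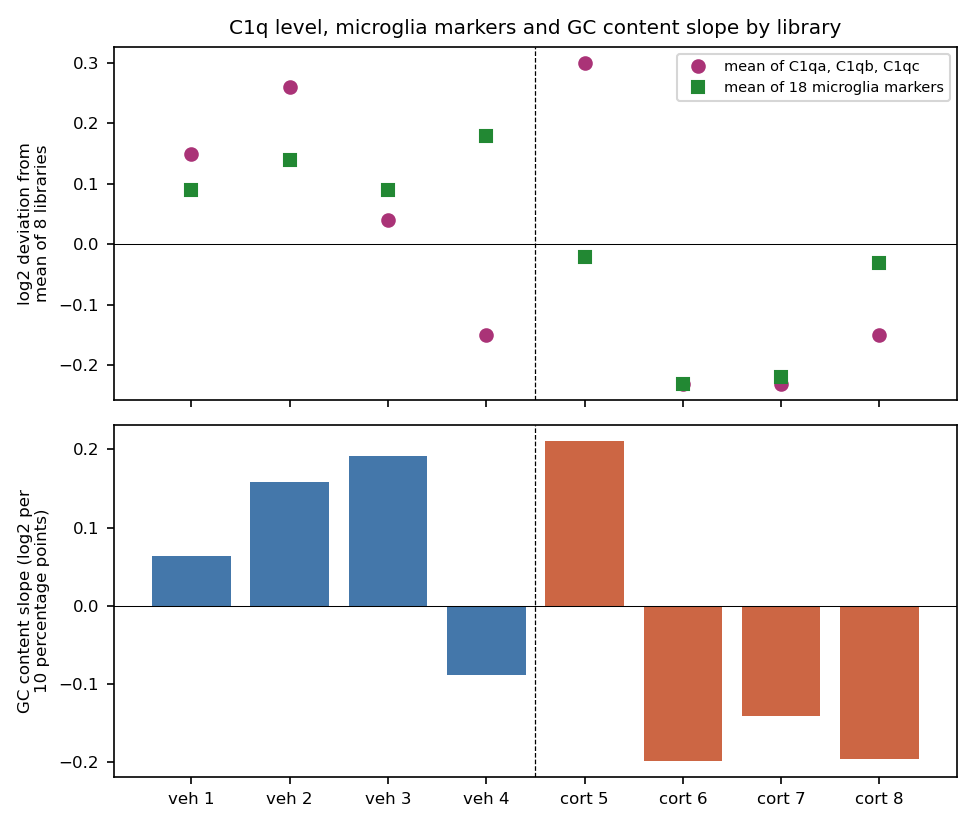
Upper panel: mean log2 deviation from the 8 libraries for *C1qa*, *C1qb* and *C1qc* (circles) and for 18 microglia markers (squares). Lower panel: slope of the log2 level with GC content, per 10 percentage points. Corticosterone library 5 is highest in C1q (0.30) and in the slope (0.211), and vehicle library 4 is low in C1q (-0.15) while its microglia markers are at 0.18.

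The C1q genes kept nearly fixed proportions to each other. Of the summed C1q level per length, *C1qb* made up 44.0% ± 1.3 (SD, n = 4) in the vehicle libraries and 45.1% ± 1.0 in the corticosterone libraries. *C1qa* made up 31.6% ± 1.3 and 31.6% ± 1.0, and *C1qc* made up 24.4% ± 0.75 and 23.4% ± 0.28. Each pair of the 3 genes had a Pearson correlation between 0.94 and 0.95 over the 8 libraries. Such a profile was common in these libraries: 459 of 16015 other genes (2.87%) had a correlation of at least 0.9 with the C1q mean. Their median GC content was 57.3%. The 3 nearest, *AI413582*, *Lzts2* and *Cuedc2*, each had a correlation of 0.99 over the 8 libraries, which share library depth and the trend with GC content.

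Microglia markers were compared because microglia are the main source of C1q. Of the 18 markers, all were tested and 17 had a log2 fold change below 0. At an unadjusted p value under 0.05, 6 of the 18 were lower, beside 4.52% of all genes. The groups did not overlap for 5, all lower with corticosterone, beside 1.68% of all genes that were lower without overlap. None was called, and the median was -0.20. Their summed level was between 602 and 616 CPM with vehicle and between 491 and 589 CPM with corticosterone. *Cx3cr1*, the fractalkine receptor of microglia, had normalized counts of 1160 ± 54.0 with vehicle and 681 ± 163 with corticosterone (log2 fold change -0.76, adjusted p = 0.186 by edgeR's quasi-likelihood test with Benjamini-Hochberg adjustment). Relative to the mean of the markers in the same library, *C1qc* stood at 0.98 ± 0.17 with vehicle and 1.02 ± 0.20 with corticosterone on the log2 scale. *C1qa* stood at 0.46 ± 0.21 and 0.57 ± 0.22, and *C1qb* at 1.0 ± 0.23 and 1.14 ± 0.16. These differences, of 0.04 to 0.14, were smaller than the SD of either group. The part of microglial RNA in the C1q values was not tested.

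*C4b* (ENSMUSG00000073418, chr17:34728380-34743882, minus strand) encodes the component C4, which C1s cleaves. Normalized counts of *C4b* were 459, 545, 577 and 506 in the vehicle libraries and 613, 484, 455 and 499 in the corticosterone libraries. The range of the corticosterone libraries enclosed that of the vehicle libraries, with library 5 again the highest. The means were 522 ± 51.0 and 513 ± 69.3, a log2 fold change of -0.02 (SE 0.11, 95% interval -0.26 to 0.21, adjusted p = 0.941 by edgeR's quasi-likelihood test with Benjamini-Hochberg adjustment). *C4b* had the narrowest interval of the 8 genes tested. Its correlation with the C1q genes over the 8 libraries was between 0.59 and 0.66, and *Selenbp1*, *P4ha1* and *Mapk3* had the profiles most like it (0.99, 0.98 and 0.98).

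*C4a*, a near-identical copy beside *C4b*, took a small share of the reads, and the split between the copies is uncertain. Its normalized counts were 38.3, 32.3, 50.9 and 34.6 with vehicle and 36.1, 13, 22.1 and 21.4 with corticosterone. Only library 5 of the corticosterone group reached the vehicle values (log2 fold change -0.74, SE 0.29, adjusted p = 0.527 by edgeR's quasi-likelihood test with Benjamini-Hochberg adjustment). Without that library the log2 fold change was -1.04 and *C4a* was called (adjusted p = 0.0374, same edgeR test), in a fit that called 10.2% of all genes and 6.47% as lower. With the trend with GC content and length removed as well, it was -0.89 and was not called (adjusted p = 0.129, same edgeR test). Of the reads on both copies, *C4a* held 6.95% ± 1.16 with vehicle and 4.23% ± 1.23 with corticosterone. Reads that aligned to several places made up between 0.0699% and 0.1106% of the vehicle libraries and between 0.042% and 0.0536% of the corticosterone libraries, and their part in the difference was not tested.

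*C3* (ENSMUSG00000024164, chr17:57203970-57228136, minus strand), on which all complement pathways converge, had few reads. Between 5 and 24 reads per library fell on it. The normalized counts were 9.82, 9.80, 10.8 and 4.94 in the vehicle libraries and 14.6, 16.3, 8.41 and 23.4 in the corticosterone libraries. Corticosterone libraries 5, 6 and 8 lay above every vehicle library, while library 7 lay below 3 of them. The means were 8.83 ± 2.63 and 15.7 ± 6.16, a log2 fold change of 0.82 (SE 0.37, 95% interval 0.02 to 1.63). The unadjusted p value of edgeR's quasi-likelihood test was 0.046, and with Benjamini-Hochberg adjustment it was 0.545, so that *C3* did not pass the threshold. The exact permutation test gave p = 0.114, two-sided. Counting error alone gives a coefficient of variation of 28.6% at the mean level of the 8 libraries, beside 29.8% between the vehicle libraries and 39.3% between the corticosterone libraries. Without corticosterone library 8 the log2 fold change was 0.56, and without library 7 it was 1.03. Markers of the choroid plexus, the epithelium that makes cerebrospinal fluid, also varied between the libraries. The mean log2 deviation of the 5 that passed the filter was 0.26, 0.25, -1.02 and -1.30 in vehicle libraries 1 to 4 and 1.02, 0.71, -0.39 and 0.47 in corticosterone libraries 5 to 8, beside -0.17, -0.18, -0.06 and -0.94, then 0.32, 0.46, -0.36 and 0.93, for *C3*. Both were lowest in vehicle library 4 and above their mean in corticosterone libraries 5, 6 and 8. In vehicle libraries 1 and 2, however, the choroid plexus markers were above their mean and *C3* was below it. In vehicle library 3 the markers were at -1.02 and *C3* at -0.06. Of these 5, 4 had a log2 fold change above 0 and the median was 1.04. All 7 markers on the list summed to between 21.8 and 68.9 CPM with vehicle and between 32.6 and 72.5 CPM with corticosterone, and none was at 0 in all libraries. Their part in the *C3* values was not tested.

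*Serping1* (ENSMUSG00000023224, chr2:84765387-84775444, minus strand) encodes the C1 inhibitor. Across the libraries, normalized counts were 81.5, 145, 104 and 89.8 in the vehicle libraries and 118, 197, 119 and 138 in the corticosterone libraries. Vehicle library 2 lay within the corticosterone range, and the other 3 vehicle libraries lay below it. The means were 105 ± 28.2 and 143 ± 37.4, a log2 fold change of 0.44 (SE 0.21, 95% interval -0.01 to 0.89). It was not called (unadjusted p = 0.0524 and adjusted p = 0.545 by edgeR's quasi-likelihood test with Benjamini-Hochberg adjustment). Without corticosterone library 6 the log2 fold change was 0.25, and without vehicle library 2 it was 0.64.

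The level of *Serping1* went with markers of fibroblasts and mural cells, which line the vessels and meninges. The mean deviation of the 10 markers was -0.38, 0.40, -0.32 and -0.23 in vehicle libraries 1 to 4 and -0.01, 0.41, 0.01 and 0.11 in corticosterone libraries 5 to 8, on the log2 scale. That of *Serping1* was -0.54, 0.27, -0.20 and -0.41, followed by -0.02, 0.71, -0.01 and 0.21. Both were highest in corticosterone library 6, and vehicle library 2 was high within its group in both. All 10 markers were tested, 9 had a log2 fold change above 0, and the median was 0.25. The highest values were those of fibroblast genes, such as *Col3a1* (0.60) and *Dcn* (0.54), while the mural cell genes *Rgs5* and *Kcnj8* were at 0.10 and 0.04. *Pdgfrb*, the growth factor receptor of mural cells, was lower in every corticosterone library (260 ± 28.2 with vehicle and 209 ± 4.52 with corticosterone, log2 fold change -0.31). Their summed level ranged from 194 to 273 CPM with vehicle and from 227 to 340 CPM with corticosterone, and none was at 0. *Col3a1*, a collagen gene, was among the 3 genes whose profile was most like that of *Serping1*, with *Adamts13* and *Cyp1b1* (Pearson correlation 0.96 each over 8 libraries). *Serping1* and *C3* had a correlation of 0.60. Markers of perivascular macrophages also went with *Serping1*. The mean deviation of the 5 that were tested was -0.12, 0.31, -0.39 and -0.38 in vehicle libraries 1 to 4. In corticosterone libraries 5 to 8 it was 0.15, 0.43, -0.13 and 0.13. All 5 had a log2 fold change above 0, with a median of 0.17, and none was called. The 7 on the list summed to 4.95 to 8.85 CPM with vehicle and 5.6 to 9.63 CPM with corticosterone. The part of tissue composition in these values was not tested.

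**Figure D4:**
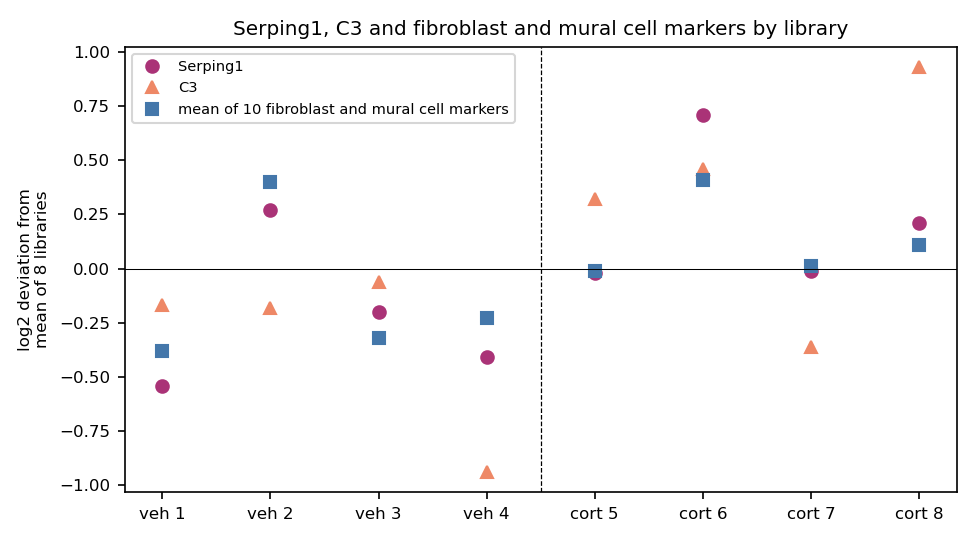
Log2 deviation from the mean of the 8 libraries (vertical axis) for *Serping1*, *C3* and the mean of 10 markers of fibroblasts and mural cells, by library. *Serping1* and the markers are both high in vehicle library 2 (0.27 and 0.40) and corticosterone library 6 (0.71 and 0.41), whereas *C3* is highest in corticosterone library 8 (0.93).

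The receptors gave no difference beyond the replicate spread. *C3ar1* (ENSMUSG00000040552, chr6:122847138-122856161, minus strand), the receptor of C3a, had normalized counts of 16.7, 19.6, 23.5 and 30.6 with vehicle and 20.5, 17.4, 13.7 and 9.74 with corticosterone. Corticosterone libraries 7 and 8 lay below every vehicle library, and libraries 5 and 6 lay within the vehicle range. The means were 22.6 ± 6.02 and 15.3 ± 4.64, a log2 fold change of -0.56 (SE 0.30, 95% interval -1.21 to 0.10). It was not called (adjusted p = 0.55 by edgeR's quasi-likelihood test with Benjamini-Hochberg adjustment, and p = 0.143 by the exact permutation test, two-sided). Between 10 and 31 reads per library fell on *C3ar1*. Relative to the microglia markers it stood at -4.15 ± 0.31 with vehicle and -4.42 ± 0.44 with corticosterone on the log2 scale, a difference of -0.27. Its correlation with *C3* over the 8 libraries was -0.70.

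*Itgam* (ENSMUSG00000030786, chr7:128062640-128118491, plus strand) encodes CD11b, the alpha chain of complement receptor 3. Normalized counts of *Itgam* were 115, 97.0, 112 and 127 with vehicle and 72.1, 102, 123 and 132 with corticosterone. Corticosterone library 5, the highest in C1q, was the lowest in *Itgam*, and the other 3 lay between 102 and 132. The means were 113 ± 12.5 and 107 ± 26.4, a log2 fold change of -0.08 (SE 0.18, 95% interval -0.46 to 0.31, adjusted p = 0.881 by edgeR's quasi-likelihood test with Benjamini-Hochberg adjustment). Without library 5 the log2 fold change was 0.08, so the direction rested on that library. *Itgam* had correlations between -0.64 and -0.74 with the C1q genes over the 8 libraries. In the annotation, 68.7% of its exon length is shared on the same strand with *Gm49368*, on which no read was counted, so reads in the shared part may have been set aside as ambiguous. Per kb of the 1574 bases that are not shared, its level was 3.75 ± 0.414 CPM with vehicle and 3.55 ± 0.877 with corticosterone. Its partner *Itgb2*, the beta chain, was at 91.8 ± 19.8 and 83.2 ± 19.0 normalized counts (log2 fold change -0.14, SE 0.20).

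*C5ar1* (ENSMUSG00000049130, chr7:16246743-16259540, minus strand), the receptor of C5a, had between 2 and 10 reads per library and did not pass the filter. The normalized counts were 1.96, 2.94, 9.78 and 2.96 with vehicle and 3.90, 3.25, 5.25 and 2.92 with corticosterone. Apart from vehicle library 3, every library lay between 1.96 and 5.25. The means were 4.41 ± 3.61 and 3.83 ± 1.03 (p = 0.943 by the exact permutation test, two-sided), and a difference was not detectable at this depth. Markers of monocytes and neutrophils, which carry this receptor in blood, summed to between 0.205 and 1.18 CPM, with *Ly6g* and *Retnlg* at 0.

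The rest of the pathway was examined in a list of 48 other complement genes, of which 40 had at least 1 read and 24 were tested. None was called by edgeR, DESeq2 or limma-voom. By edgeR's quasi-likelihood test, 2 were higher and 5 were lower at an unadjusted p value under 0.05, beside 4.51% and 4.52% of all genes. Of the 24 tested, the groups did not overlap for 2, *Cfp* and *C8g*, both lower with corticosterone, where 1.68% of all genes were lower and 1.99% higher without overlap. The log2 fold change was above 0 in 12 and below 0 in 12, with a median of 0.01. Of the untested genes, *C1s2*, which encodes a C1s protease and was named after its values were seen, had normalized counts that did not overlap (1.96 to 2.95 with vehicle and 3.15 to 6.51 with corticosterone). It had 2 to 6 reads per library, and the raw counts did overlap, at 3 reads. No read was counted on *Mbl1* and *Mbl2*, the lectins that start the lectin pathway, on *Cfb* and *Cfd* of the alternative pathway, on *C6* and *C9* of the membrane attack complex, or on *Cpn2* and *Vsig4*. *Cfb* shares 79.5% of its exon length with *Gm20547* on the same strand, so its zero is uncertain.

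Among the starting components, *Colec12*, a scavenger receptor of the collectin family, had normalized counts of 102 ± 20.6 with vehicle and 140 ± 36.3 with corticosterone (log2 fold change 0.47, SE 0.19, and 0.30 without corticosterone library 6). *C2*, the partner of C4, had 10.1 ± 4.25 and 15.3 ± 3.83 (log2 fold change 0.60, SE 0.35), and shares 42.8% of its exon length with *Gm20547*. *Cfp* encodes properdin, which stabilises the enzyme that cleaves C3. Its normalized counts were 126, 168, 147 and 150 in the vehicle libraries and 120, 103, 107 and 114 in the corticosterone libraries. Every corticosterone library, library 5 included, lay below every vehicle library. The log2 fold change was -0.41 (SE 0.13, unadjusted p = 0.00686 and adjusted p = 0.443 by edgeR's quasi-likelihood test with Benjamini-Hochberg adjustment). The exact permutation test gave its smallest possible value, p = 0.0286, two-sided and unadjusted. With the trend with GC content and length removed, the log2 fold change was -0.36. *C8g*, which encodes a chain of C8 in the terminal complex, was at 15.7 ± 4.12 and 9.39 ± 2.10 normalized counts (log2 fold change -0.73, SE 0.32).

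Of the soluble regulators, *Clu*, clusterin, an inhibitor of the terminal complex, was at 19900 ± 590 and 18900 ± 885 normalized counts (log2 fold change -0.07, SE 0.063). *C4bp*, which binds C4b and aids its breakdown, was at 19.4 ± 6.0 and 23.0 ± 9.47.

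Membrane regulators protect the cell that carries them. Of 10 such genes, 9 were tested, 7 had a log2 fold change above 0 and the median was 0.08. *Cd59a*, which blocks the terminal complex, was at 86.2 ± 17.1 with vehicle and 111 ± 28.4 with corticosterone (log2 fold change 0.36, SE 0.19, and 0.16 without corticosterone library 8). *Cd46*, a cofactor for the cleavage of C3b, was at 49.3 ± 12.5 and 66.2 ± 21.2 (log2 fold change 0.42, SE 0.26). It was at 0.25 without corticosterone library 6 and at 0.20 with the trend with GC content and length removed. *Susd4*, a membrane protein that restrains C3 cleavage, was at 3060 ± 225 and 2720 ± 104 normalized counts (log2 fold change -0.17, SE 0.07), and at -0.07 with the trend with GC content and length removed. Of 9 receptor genes, 4 were tested, and their log2 fold changes lay between -0.56 and -0.08. That of *Itgb2* was 0 without vehicle library 2 or without corticosterone library 7, and that of *Itgam* 0.08 without library 5. Beside *C3ar1*, described above, the fourth was *Cd93*, a C1q receptor-like protein of endothelial and myeloid cells, at 92.6 ± 17.8 and 68.6 ± 15.9 (log2 fold change -0.44, SE 0.19). The 8 endothelial markers summed to between 137 and 146 CPM with vehicle and between 117 and 133 CPM with corticosterone, none was at 0, and their part in *Cd93* was not tested.

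**Figure D5:**
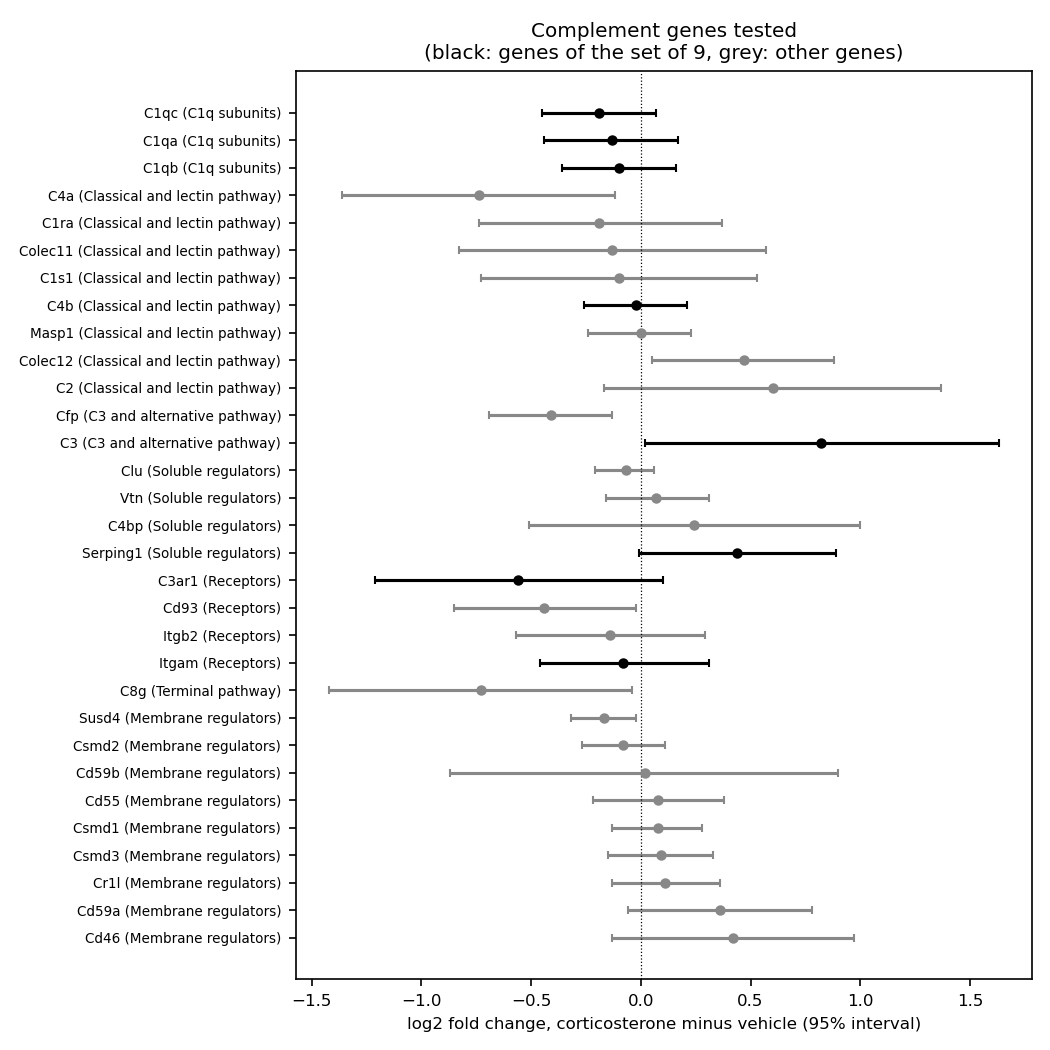
Log2 fold change, corticosterone minus vehicle, with its 95% interval (horizontal axis) for complement genes that were tested, grouped by role, with 8 of the 9 chosen genes in black and other genes in grey. The black intervals reach from -1.21 for *C3ar1* to 1.63 for *C3*, and that of *C4b* is the narrowest among them.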

How the data were processed

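RNA-seq of 8 ventral hippocampus samples was used, 1 per mouse. Per the labels and the study's methods, mRNA was read with a stranded paired-end protocol, aligned to mm10 with GSnap and counted per gene with HTSeq-count 0.6.0. The authors deposited raw counts, without normalization. The annotation release and strand setting of the counting are not given in the sources used here. All 8 columns were mapped to a group from the labels, and 5 lines that name no gene (14.8% of reads) were left out. Positions and symbols came from GENCODE M21 on GRCm38, with 50462 of 50686 identifiers found.

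Counts were scaled with TMM, filtered with filterByExpr and tested by quasi-likelihood in edgeR 4.0.16 under R 4.3.3, with Benjamini-Hochberg adjustment over all genes tested and a threshold of 0.05. Normalized counts are TMM-scaled. Exact permutation tests used log2(normalized count + 2) over 70 assignments. Levels between genes are CPM per kb of merged exon. No batch is named in the labels.

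The 9 genes and all lists were chosen with earlier results of these data known. Named genes are the 9, in each complement role list up to 3 tested genes with the smallest p value, copies and partners of the 9, the 3 genes nearest in profile, and markers. *Cx3cr1*, the microglia marker with the lowest adjusted p value, was chosen after its values were seen. Some single genes under this rule are left out of the text and remain in the counts for whole lists. Other fits were DESeq2 1.42.0, which the study used in another version, limma-voom 3.58.1, other normalizations, filters, thresholds and a robust dispersion, and each library left out. A fit with each library's dependence on GC content and length removed (splines with 5 degrees of freedom) was added after seeing the data. On simulated counts of 15875 genes, edgeR recovered 97% of genes with a log2 change of 1 and 62% with 0.5. Of the genes it called, 5.36% were unchanged. Changes were placed only in genes with more reads than *C3*, *C3ar1* and *C5ar1* had, so the rates do not cover these genes. The simulated libraries had no trend with GC content and none that stood apart like corticosterone library 5. The rates may therefore be too high for these data.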

Additional observations from a re-analysis of the deposited data

Results flagged for a closer look

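In 5 of 18 sets of 4 libraries, 1 library of a group lay far from the other 3 by Dixon's criterion (the gap to the nearest library divided by the range of the group), where chance gives about 0.9. Corticosterone library 5 was high in each C1q gene. It had 712 normalized counts of *C1qa* beside 459 to 502 in the other corticosterone libraries, 990 of *C1qb* beside 716 to 754, and 949 of *C1qc* beside 644 to 692. These 3 sets share a library and vary together, so they are not separate events. For *C3*, vehicle library 4 had 4.94 normalized counts beside 9.80 to 10.8. For *C5ar1*, vehicle library 3 had 9.78 beside 1.96 to 2.96. The values of *C3* and *C5ar1* rest on 10 reads or fewer in those libraries.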

How the results depend on the processing

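None of the 9 genes was called under the settings run, except *C1qc* without corticosterone library 5, so that leaving out each library gave 0 to 1. Of the other complement genes, leaving out each library gave 0 to 2, with *C4a* (-1.04) among those called without that library. Over all genes, 1 was called, against 64 with DESeq2 (43 higher, 21 lower), 79 with no filter (49 higher, 30 lower) and 0 with at least 10 counts in every library (1330 at an unadjusted p value under 0.05). It was 0 to 1651 with each library left out, 19 with the trend with GC content and length removed, and 152 with that trend removed and corticosterone library 5 left out. The directions of *C1qa* (0.03), *C1qb* (0.02) and *C4b* (0.02) turned when the trend was removed. That of *C4b* ran from -0.12 to 0.03 and that of *Itgam* from -0.20 to 0.08 with each library left out, and *Itgam* was at 0.07 with the trend removed and library 5 left out. *C3* ranged from 0.56 to 1.03, *Serping1* from 0.25 to 0.64 and *C3ar1* from -0.74 to -0.38 with each library left out. With the trend removed and library 5 left out, *C3ar1* was at -0.91 and was not called. The cause of these shifts was not tested. Depth limits *C3*, *C3ar1* and *C5ar1*. No paired analysis was possible because no replicate number occurs in both groups.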
